A study of Homo sapiens with 12 samples.

Results

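Small Cajal body RNAs (scaRNAs) are noncoding RNAs that guide the chemical modification of the small nuclear RNAs of the spliceosome. They gather in Cajal bodies, compartments of the nucleus organised around the protein coilin. A scaRNA of the box C/D class carries a C box and a D box near its ends and leads the methyltransferase fibrillarin to a ribose of its target, whereas a box H/ACA scaRNA leads the pseudouridine synthase dyskerin to a uridine. Composite scaRNAs carry both kinds of domain. Most are cut out of introns of a host gene.

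The genes examined were 10 scaRNA genes chosen by symbol: SCARNA2, SCARNA5, SCARNA6, SCARNA7, SCARNA9, SCARNA10, SCARNA12, SCARNA13, SCARNA16 and SCARNA17. Their Ensembl identifiers were matched to symbols, and 8 of the 10 had an identifier with enough counts to be tested, among 22984 tested genes of 57773 identifiers in all.

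The libraries came from HuH-7, an established human hepatoma line, and were stranded total RNA libraries of 4 groups with 3 libraries each. The groups were the V5 precipitates and the inputs of a line stably expressing HuR(K120/182R), and the V5 precipitates and the inputs of a line stably overexpressing WT HuR. HuR, the product of ELAVL1, is an RNA-binding protein known for binding U-rich and AU-rich stretches of mRNAs, and K120/182R is a mutant for its SUMOylation, in which a small protein related to ubiquitin is joined to lysines. Precipitates held the RNA recovered with the V5 tag, and inputs held total RNA of the same lines. Precipitates entered library preparation at 16 to 77 ng of RNA and inputs at 250 ng, so RNA amount and precipitation cannot be told apart. No precipitate of cells without the tag was used here, and the labels name neither the number of clones behind a line nor the promoter of the tagged gene, nor do they say whether endogenous HuR was removed. Nothing in the labels ties replicates to separate cultures either, and p-values therefore reflect the spread of these 12 libraries alone, technical spread included.

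Gene counts summed to between 31774994 and 73149117 per library. ELAVL1, which gene counts cannot split into tagged and endogenous transcripts, averaged 27.2 ± 3.7 counts per 1e6 scaled by the trimmed mean of M values (CPM) in K120/182R precipitates, 34.5 ± 3.0 CPM in WT precipitates, 48.4 ± 4.2 CPM in K120/182R inputs and 58.2 ± 5.3 CPM in WT inputs (SD, n = 3 each). The 10 hepatocyte genes examined, AFP and ALB among them, were all detected and summed to between 8794 and 9923 CPM in K120/182R inputs and between 11200 and 13180 CPM in WT inputs. The 5 leukocyte markers summed to at most 13.5 CPM and the 5 stromal and endothelial markers that matched to at most 3.19 CPM in any library. In these bulk libraries a smaller number of cells with an RNA cannot be told apart from less of the RNA per cell.

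The sequences below, read from the GRCh37 genome at the annotated positions, show the ends that define the classes, by which the results are ordered. They are given 5′ to 3′ as DNA. Capitals mark TGATGA, the core of the C box, CTGA, the D box, where it stood within 20 bases of the 3′ end, and the ACA trinucleotide 3 bases before the 3′ end of the H/ACA member. SCARNA7, at chr3:160232695-160233024 on the minus strand, is a C/D scaRNA of 330 bases that guides methylation of U1, and its first and last 120 bases are shown.
SCARNA7 bases 1 to 120: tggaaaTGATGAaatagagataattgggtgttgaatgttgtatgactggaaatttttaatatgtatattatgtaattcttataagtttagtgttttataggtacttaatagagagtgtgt
SCARNA7 bases 211 to 330: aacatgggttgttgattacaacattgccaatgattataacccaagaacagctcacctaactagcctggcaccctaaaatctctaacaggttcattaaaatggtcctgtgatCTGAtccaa

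SCARNA17, a C/D scaRNA that acts on U4 and U12, is split in the annotation. The entry of that name covers 144 bases at chr18:47340503-47340646 on the plus strand and holds neither TGATGA nor a terminal CTGA. An entry of 83 bases at chr18:47340731-47340813, called SCARNA18 there, starts after a gap of 84 bases and holds both boxes. RefSeq gives SCARNA17 a length of 421 bases and places SCARNA18 on chromosome 5. The 3 stretches are shown in order, since both entries were counted separately.
SCARNA17 entry: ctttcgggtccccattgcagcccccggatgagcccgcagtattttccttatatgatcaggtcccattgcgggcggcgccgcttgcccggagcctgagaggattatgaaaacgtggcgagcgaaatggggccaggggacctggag
Gap between the entries: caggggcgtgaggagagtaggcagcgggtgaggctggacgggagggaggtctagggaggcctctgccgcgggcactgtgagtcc
SCARNA18 entry on chromosome 18: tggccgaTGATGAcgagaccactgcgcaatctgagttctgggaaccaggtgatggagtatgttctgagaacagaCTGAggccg

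The remaining C/D members are SCARNA9, 353 bases at chr11:93454679-93455031 on the plus strand, and SCARNA2, both guides of U2. SCARNA2 had no identifier of its own name in the annotation. It was matched by position to ENSG00000270066, an unnamed noncoding gene of 427 bases at chr1:109642815-109643241 on the plus strand, which lies 3259 bases from TMEM167B, the same distance as SCARNA2 in RefSeq, where its length is 420 bases. Their last bases hold the 3′-terminal C/D pair.
SCARNA9 bases 274 to 353: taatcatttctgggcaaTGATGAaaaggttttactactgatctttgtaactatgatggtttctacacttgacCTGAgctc
SCARNA2 bases 338 to 427: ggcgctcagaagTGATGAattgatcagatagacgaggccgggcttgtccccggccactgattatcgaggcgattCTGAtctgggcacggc

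The composite members are SCARNA5, SCARNA6 and SCARNA12, which act on U5 among other targets. SCARNA5 (276 bases, chr2:234184373-234184648, plus strand) and SCARNA6 (265 bases, chr2:234197322-234197586, plus strand) lie 12673 bases apart in introns of the same gene, ATG16L1. They share 26 of their first 28 bases and all 8 of their last 8. SCARNA12 has 270 bases at chr12:7076500-7076769 on the minus strand. All 3 are shown whole, as composite RNAs that differed in recovery.
SCARNA5: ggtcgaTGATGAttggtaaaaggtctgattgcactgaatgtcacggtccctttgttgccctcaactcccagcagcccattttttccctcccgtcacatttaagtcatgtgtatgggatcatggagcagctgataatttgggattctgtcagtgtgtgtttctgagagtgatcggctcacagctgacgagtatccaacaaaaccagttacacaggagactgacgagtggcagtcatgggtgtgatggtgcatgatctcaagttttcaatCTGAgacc
SCARNA6: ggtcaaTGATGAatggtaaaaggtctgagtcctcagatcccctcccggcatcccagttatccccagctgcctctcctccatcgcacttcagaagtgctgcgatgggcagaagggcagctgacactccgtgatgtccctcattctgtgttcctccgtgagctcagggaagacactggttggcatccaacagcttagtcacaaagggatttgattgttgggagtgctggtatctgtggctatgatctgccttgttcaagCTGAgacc
SCARNA12: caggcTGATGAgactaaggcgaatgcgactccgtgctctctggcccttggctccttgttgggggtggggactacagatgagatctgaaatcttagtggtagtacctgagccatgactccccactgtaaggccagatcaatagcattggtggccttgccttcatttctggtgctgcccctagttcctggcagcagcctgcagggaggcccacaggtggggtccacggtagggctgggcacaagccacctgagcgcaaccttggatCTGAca

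SCARNA13, 275 bases at chr14:95999692-95999966 on the minus strand, is a tandem H/ACA scaRNA that acts on U2 and U5. Its 3′ end is shown with the ACA box, and no TGATGA was found in it.
SCARNA13 bases 216 to 275: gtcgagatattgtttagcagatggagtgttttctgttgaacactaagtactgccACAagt

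The other 2 genes gave no values. SCARNA10, a composite scaRNA, was not analysed here because no identifier could be matched to it. SCARNA16, an H/ACA scaRNA that RefSeq places on chromosome 17, shared its name with 5 identifiers, none on that chromosome. They held at most 4 counts in a library and 26 counts in all, and none was tested. Of the 18 identifiers with a member's name or position, 8 were tested, and the other 10 held at most 4 counts in any library.

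Most of these RNAs were more abundant in V5-HuR precipitates than in inputs, in both lines, and the recovery differed widely between them. SCARNA7 and SCARNA17 were recovered most, at log2 fold changes of 6.78 and 4.27 in the K120/182R line and of 6.64 and 4.63 in the WT line. SCARNA12, SCARNA9 and SCARNA2 followed, and SCARNA6, which shares its host gene and its ends with SCARNA5, had the lowest values, -0.37 in the K120/182R line and -0.36 in the WT line. By edgeR (quasi-likelihood test, p adjusted by Benjamini-Hochberg), 6 of the 8 members rose in K120/182R precipitates over their inputs and 5 of 8 rose in WT precipitates over theirs. Of all tested genes, 29.0% rose and 28.0% fell in the K120/182R line, and 25.6% rose and 25.4% fell in the WT line. No member fell by this test or at an unadjusted p under 0.05, and none fell in DESeq2. The median log2 fold change of the 8 members was 2.32 in the K120/182R line and 2.27 in the WT line, beside medians of 0.07 and 0.06 over all genes.

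**Figure D1:**
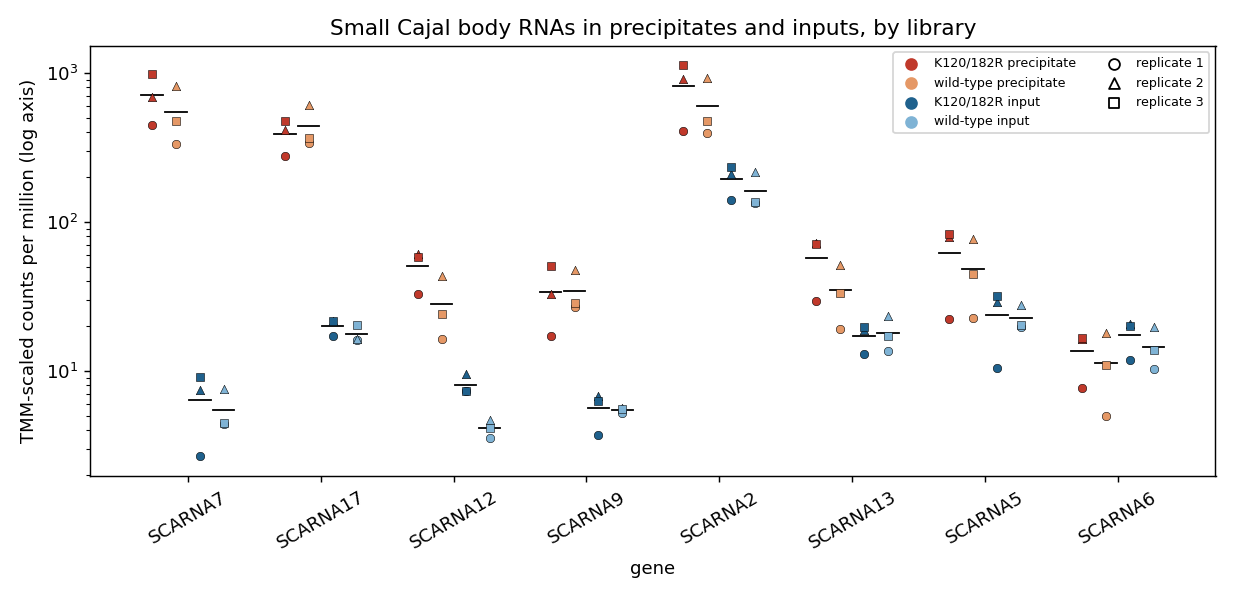
CPM (TMM-scaled counts) on a log axis for the 8 tested members (x axis, ordered by enrichment in the K120/182R line), with 1 point per library, its shape giving the replicate number, and a bar at the group mean (n = 3). From left to right within a gene stand K120/182R precipitates, WT precipitates, K120/182R inputs and WT inputs. SCARNA7 lies above 330 CPM in all precipitates and below 10 CPM in all inputs, while the SCARNA6 groups overlap.

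Among the C/D members, SCARNA7 had 447, 686 and 989 CPM in the K120/182R precipitates of replicates 1, 2 and 3, against 2.68, 7.46 and 9.07 CPM in the K120/182R inputs. SCARNA7 reached 336, 818 and 478 CPM in WT precipitates, against 4.42, 7.54 and 4.48 CPM in WT inputs. All 6 precipitates stood far above all 6 inputs, with no overlap. The log2 fold change was 6.78 ± 0.64 (SE) in the K120/182R line (edgeR adjusted p = 1.70e-05) and 6.64 ± 0.64 in the WT line (edgeR adjusted p = 2.59e-05). These correspond to ratios of 110 and 99.7. By counts, SCARNA7 ranked between 95 and 170 among all identifiers in K120/182R precipitates and between 112 and 203 in WT precipitates, whereas its best rank in an input was 8363.

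SCARNA17 had 276, 415 and 474 CPM in K120/182R precipitates, against 17.3, 21.5 and 21.7 CPM in K120/182R inputs. SCARNA17 had 338, 609 and 365 CPM in WT precipitates, against 16.3, 16.3 and 20.3 CPM in WT inputs. The groups did not overlap in either line, and the inputs varied little. Its log2 fold change came to 4.27 ± 0.24 in the K120/182R line (edgeR adjusted p = 2.32e-11) and 4.63 ± 0.24 in the WT line (edgeR adjusted p = 2.60e-11). The SCARNA18 entry of chromosome 18 gave 154, 234 and 240 CPM in K120/182R precipitates, against 12.01, 15.5 and 15.1 CPM in K120/182R inputs, and its log2 fold change there was 3.88 ± 0.32. In WT precipitates that entry had 180, 346 and 174 CPM, against 9.24, 10.1 and 14.8 CPM in WT inputs, and its log2 fold change was 4.36 ± 0.33. Both entries thus stood higher in every precipitate than in every input of their line. The count of the SCARNA17 entry was 1.78 to 1.97 times that of the SCARNA18 entry in K120/182R precipitates, against 1.39 to 1.44 times in K120/182R inputs. In the WT line the ratio was 1.76 to 2.10 in precipitates, against 1.38 to 1.76 in inputs. An exact two-sided permutation test of this ratio, chosen after the values were seen, gave p = 0.1 in each line, the smallest that 3 against 3 libraries allow.

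SCARNA9 had 17.3, 32.9 and 50.7 CPM in K120/182R precipitates, against 3.70, 6.84 and 6.32 CPM in K120/182R inputs. SCARNA9 had 26.9, 47.9 and 28.5 CPM in WT precipitates, against 5.20, 5.63 and 5.60 CPM in WT inputs. The groups did not overlap in either line. The log2 fold change of SCARNA9 was 2.57 ± 0.43 in the K120/182R line (edgeR adjusted p = 0.000748) and 2.65 ± 0.43 in the WT line (edgeR adjusted p = 0.000732).

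SCARNA2 had the highest CPM of the 8 members in every input. It had 409, 903 and 1120.4 CPM in K120/182R precipitates, against 141, 209.9 and 233 CPM in K120/182R inputs. It had 393, 927 and 479 CPM in WT precipitates, against 134, 216 and 136 CPM in WT inputs. The groups did not overlap, although the margin was narrower than for SCARNA7. For SCARNA2 the log2 fold change was 2.06 ± 0.46 in the K120/182R line (edgeR adjusted p = 0.00416) and 1.89 ± 0.46 in the WT line (edgeR adjusted p = 0.00753). All 4 C/D members therefore passed the test in both lines.

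Of the 3 composite members, SCARNA12 alone passed in both lines. It had 32.6, 60.5 and 57.8 CPM in K120/182R precipitates, against 7.30, 9.49 and 7.35 CPM in K120/182R inputs, and 16.4, 43.7 and 24.3 CPM in WT precipitates, against 3.55, 4.66 and 4.16 CPM in WT inputs. No precipitate overlapped an input of its line. SCARNA12 thus had a log2 fold change of 2.64 ± 0.38 in the K120/182R line (edgeR adjusted p = 0.000261) and 2.77 ± 0.39 in the WT line (edgeR adjusted p = 0.000286).

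SCARNA5 and SCARNA6 did not pass in either line in this fit, which had no replicate block. SCARNA5 had 22.3, 79.7 and 82.5 CPM in K120/182R precipitates, against 10.4, 28.9 and 31.9 CPM in K120/182R inputs. Its WT values were 22.7, 77.4 and 45.1 CPM in precipitates, against 19.7, 27.7 and 20.2 CPM in inputs. The lowest precipitate of each line fell within the range of the inputs, although each precipitate exceeded the same-numbered input, for 3 of 3 numbers in each line. SCARNA5 had log2 fold changes of 1.37 in the K120/182R line (95% interval -0.11 to 2.85, edgeR adjusted p = 0.103) and 1.11 in the WT line (95% interval -0.36 to 2.57, edgeR adjusted p = 0.186). Without replicate 1 of the K120/182R precipitates SCARNA5 was at 1.77 in that line and passed (edgeR adjusted p = 0.0356). It passed in neither line when any other single library was left out. In DESeq2, also without a block, SCARNA5 was at 1.41 in the K120/182R line and passed (DESeq2 adjusted p = 0.0396).

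SCARNA6 had 7.72, 16.4 and 16.7 CPM in K120/182R precipitates, against 11.9, 20.7 and 20.0 CPM in K120/182R inputs. Its WT values were 4.96, 17.9 and 10.99 CPM in precipitates, against 10.3, 19.6 and 13.8 CPM in inputs. The groups overlapped in both lines, although each precipitate lay below the same-numbered input, for 3 of 3 numbers in each line. For SCARNA6 the log2 fold change was -0.37 in the K120/182R line (95% interval -1.52 to 0.78, edgeR adjusted p = 0.562) and -0.36 in the WT line (95% interval -1.51 to 0.78, edgeR adjusted p = 0.582). The upper bound of SCARNA6 lay below the lower bounds of SCARNA7, SCARNA17, SCARNA12, SCARNA9 and SCARNA2 in both lines.

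SCARNA5 and SCARNA6 could also be set against each other within a library, which removes the scaling between libraries. SCARNA5 had 2.89 to 4.95 times the counts of SCARNA6 in K120/182R precipitates, against 0.87 to 1.598 times in K120/182R inputs. In the WT line the ratio was 4.10 to 4.58 in precipitates, against 1.41 to 1.91 in inputs. Precipitates and inputs did not overlap in this ratio. An exact two-sided permutation test, chosen after the values were seen, gave p = 0.1 in each line, which is the smallest possible with 3 against 3.

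The H/ACA member SCARNA13 had 29.6, 72.7 and 70.8 CPM in K120/182R precipitates, against 13.1, 19.0 and 19.7 CPM in K120/182R inputs, with no overlap. Its WT values were 19.1, 51.8 and 33.5 CPM in precipitates, against 13.7, 23.4 and 17.1 CPM in inputs, and these overlapped. SCARNA13 had a log2 fold change of 1.74 ± 0.46 in the K120/182R line (edgeR adjusted p = 0.0108) and 0.95 ± 0.45 in the WT line (edgeR adjusted p = 0.115). The difference between these enrichments was 0.79 (95% interval -0.67 to 2.25, edgeR adjusted p = 0.667), so a difference between the lines was not shown. Without replicate 1 of the WT precipitates the WT enrichment of SCARNA13 was 1.24 and passed (edgeR adjusted p = 0.0464). Leaving out any other single library did not bring it past the threshold.

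**Figure D2:**
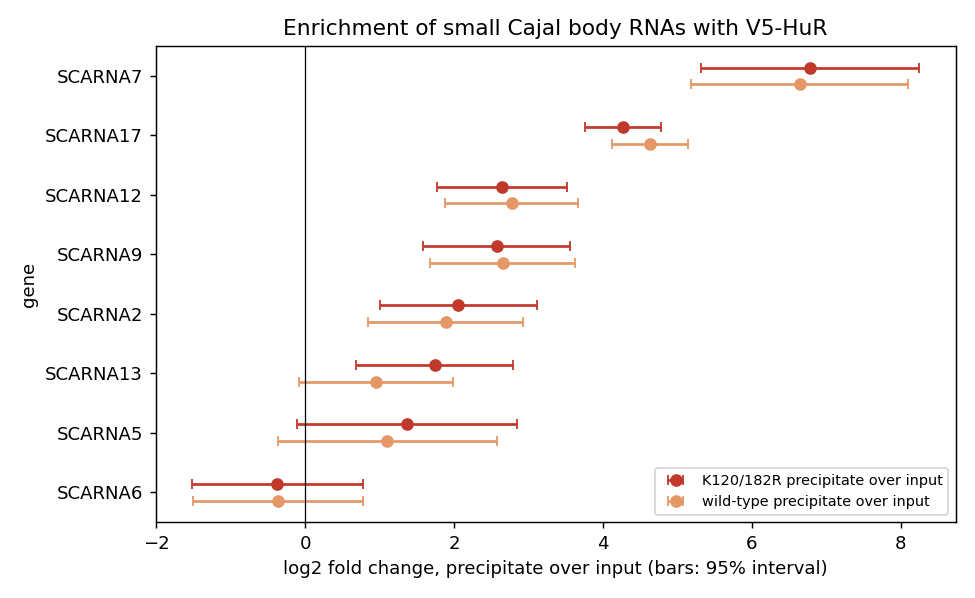
Log2 fold change of precipitate over input for each member, from edgeR, with bars giving the 95% interval (n = 3 libraries a group), for the K120/182R line above and the WT line below within each gene. The intervals of SCARNA7 and SCARNA17 do not overlap each other or those of any other member, and those of SCARNA5 and SCARNA6 span 0 in both lines.

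Every precipitate stood above every input of its line for 6 of 8 members in the K120/182R line, where 32.9% of all genes did so, and for 5 of 8 in the WT line, where 30.4% did. The order of the log2 fold changes was SCARNA7, SCARNA17, SCARNA12, SCARNA9 and SCARNA2 in both lines. SCARNA13, SCARNA5 and SCARNA6 followed in the K120/182R line, and SCARNA5, SCARNA13 and SCARNA6 in the WT line. Only the intervals of SCARNA7 over SCARNA17 and of SCARNA17 over SCARNA12 lay apart between neighbours in this order.

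The level of each RNA was also set against its length, as CPM per kilobase of the entry, since longer RNAs collect more reads. For SCARNA17 the length was the 144 bases of its entry, against 421 bases in RefSeq. Its rank below is that of the entry, and a level over the whole RNA was not computed. In K120/182R precipitates SCARNA17 (2697 ± 704), SCARNA7 (2143 ± 824) and SCARNA2 (1899 ± 853 CPM per kilobase, SD, n = 3 each) led, their ranges overlapped, and all 3 lay above the fourth, SCARNA5, at 223 ± 123.1. In WT precipitates the order was the same, with SCARNA17 at 3037 ± 1037, SCARNA7 at 1648 ± 751, SCARNA2 at 1405 ± 672 and SCARNA5 at 175 ± 99.5 CPM per kilobase. SCARNA6 was last in both. In inputs SCARNA2 led with 456 ± 112 in the K120/182R line and 380 ± 110 CPM per kilobase in the WT line, above the range of SCARNA17 at 139.9 ± 17.2 in the K120/182R line and 122 ± 16.3 in the WT line. SCARNA7 was seventh of 8 in K120/182R inputs (19.4 ± 10.1 CPM per kilobase) and sixth in WT inputs (16.6 ± 5.4), where its range overlapped those of its neighbours at the low end, SCARNA9 and SCARNA12 in WT inputs.

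Together the 8 members took 0.195% to 0.393% of the counts of K120/182R precipitates, against 0.0125% to 0.0207% of K120/182R inputs. They took 0.206% to 0.371% of WT precipitates, against 0.0175% to 0.0201% of WT inputs. Replicate 1 held the lowest CPM of its group for all 8 members in all 4 groups. The median of the 127 tested box C/D snoRNA genes was also lowest in replicate 1 of the precipitates, at 1.66, 2.12 and 2.33 log2 CPM in K120/182R replicates 1, 2 and 3 and at 1.17, 1.70 and 1.45 log2 CPM in WT replicates. In the inputs it was lowest in replicate 1 of the K120/182R line, at -1.57, -0.65 and -0.75 log2 CPM, but in replicate 3 of the WT line, at -1.25, -1.13 and -1.76 log2 CPM. Its part in the spread of the members was not tested. These snoRNA genes are of a class known for guiding modification of ribosomal RNA in the nucleolus, though not every member need do so. Of the 127, 106 rose and 8 fell in the K120/182R line with a median log2 fold change of 2.97. In the WT line 104 rose and 5 fell with a median of 2.84. The TMM-scaled summed CPM of the 127 genes was nevertheless lower in precipitates, at 2058 to 3585 against 4186 to 5882 in K120/182R inputs. In the WT line it was 1387 to 3001 in precipitates against 3051 to 6193 in inputs. Without TMM, box C/D snoRNA genes, untested ones included, took 0.323% to 0.489% of the counts of K120/182R precipitates, against 0.251% to 0.350% of inputs. In the WT line they took 0.247% to 0.429% of precipitates, against 0.2685% to 0.388% of inputs. These shares overlapped in both lines, so the lower sum was not seen without TMM. For the 115 box H/ACA snoRNA genes, 63 rose and 20 fell with a median of 1.23 in the K120/182R line, and 49 rose and 21 fell with a median of 0.94 in the WT line.

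The size of an enrichment depended on the scaling between precipitate and input, because the libraries differ in composition. With the trimmed mean of M values (TMM) used here, 50.9% of the calls in the K120/182R line and 50.2% in the WT line were higher in the precipitate. With total library size these shares were 94.8% and 94.7%, the median of all genes was 1.38 and 1.12 on the log2 scale, and all 8 members passed in both lines, SCARNA6 at 0.92 and 0.69. Of all 22984 tested genes, 16795 rose in the K120/182R line and 15761 in the WT line with that scaling, so most genes passed with the members. With TMM factors from small RNA genes alone the shares were 11.4% and 7.53%, the median of all genes was -0.99 and -1.01, and 6 members in the K120/182R line and 5 in the WT line still rose. Of all genes, 1716 and 1122 rose with these factors. SCARNA6 fell there by 1.5 in the K120/182R line (edgeR adjusted p = 1.31e-08) and by 1.53 in the WT line (edgeR adjusted p = 7.98e-09). SCARNA7 ranged from 5.50 to 8.08 and SCARNA17 from 3.16 to 5.66 over every alternative tried in either line.

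The genes around these RNAs mattered for reading their counts. SCARNA7 lies in an intron of KPNA4, which encodes an importin, SCARNA9 in an intron of CEP295, which encodes a centriole protein, and SCARNA5 and SCARNA6 in introns of ATG16L1, an autophagy gene. KPNA4 itself showed no enrichment, with log2 fold changes of -0.19 in the K120/182R line (edgeR adjusted p = 0.180) and -0.20 in the WT line (edgeR adjusted p = 0.177). The count of SCARNA7 was 13.6 to 26.6 times that of KPNA4 in K120/182R precipitates, against 0.0743 to 0.229 times in K120/182R inputs. In the WT line it was 5.46 to 17.7 times in precipitates, against 0.0673 to 0.126 times in inputs. ATG16L1 changed by 0.04 in the K120/182R line and by -0.18 in the WT line, neither past the threshold (edgeR adjusted p = 0.788 and 0.248). CEP295 rose by 0.91 in the K120/182R line (edgeR adjusted p = 5.62e-05) and by 0.59 in the WT line (edgeR adjusted p = 0.00452), less than the 2.57 and 2.65 of SCARNA9.

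SCARNA12, SCARNA13 and SCARNA17 lie wholly within exons of at least 1 annotated transcript of their hosts, PHB2, SNHG10 and SNHG22, on the same strand. A read within the scaRNA could therefore come from either RNA, and how such reads were assigned is not given. SCARNA13 and SCARNA17 had more counts than their hosts in every library, so their reads were not all counted for the host as well. PHB2, which encodes a prohibitin, had a log2 fold change of -0.20 in the K120/182R line (edgeR adjusted p = 0.314) and fell by 0.41 in the WT line (edgeR adjusted p = 0.0449). SNHG10 changed by 0.26 in the K120/182R line (edgeR adjusted p = 0.240) and rose by 0.58 in the WT line (edgeR adjusted p = 0.0108). SCARNA13 also shares 127 bases, 46.2% of its length, with an exon of GLRX5 on the opposite strand. GLRX5 rose by 0.90 in the K120/182R line and by 0.66 in the WT line (edgeR adjusted p = 9.85e-07 and 7.65e-05), so the values of SCARNA13 are uncertain where strand was not kept. SNHG22 rose by 4.27 in the K120/182R line and by 4.44 in the WT line, like SCARNA17. The count of SCARNA17 was 4.28 to 4.43 times that of SNHG22 in K120/182R precipitates, against 4.17 to 4.80 times in K120/182R inputs, and 4.14 to 4.65 times in WT precipitates, against 3.65 to 4.16 times in WT inputs. The 2 entries thus kept nearly the same ratio in all libraries.

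**Figure D3:**
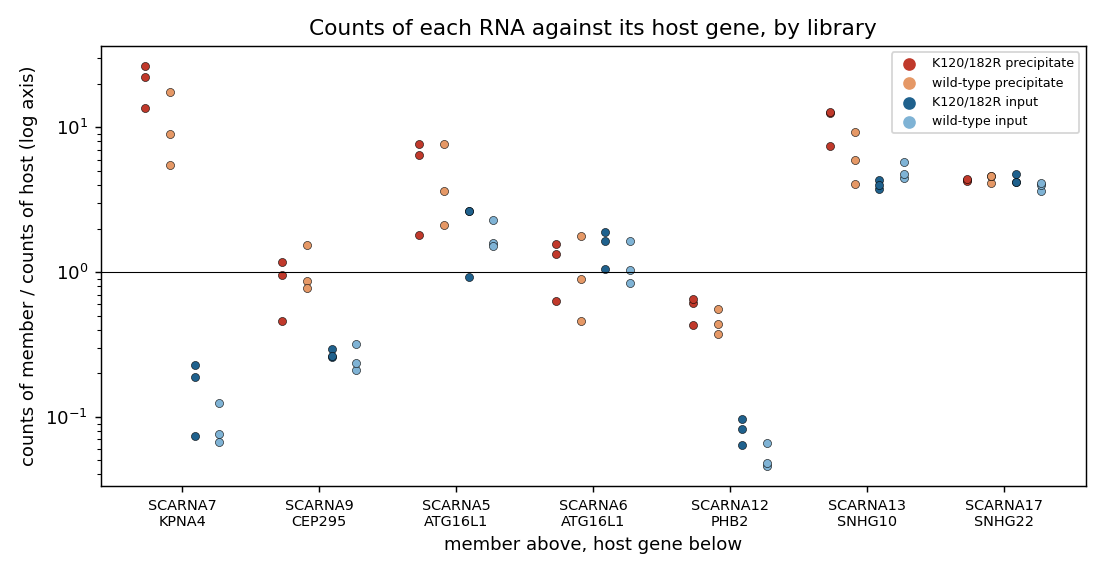
Counts of each scaRNA divided by the counts of its host gene in the same library, on a log axis, with 1 point per library and, from left to right within a pair, K120/182R precipitates, WT precipitates, K120/182R inputs and WT inputs. The ratio of SCARNA7 to KPNA4 lies above 5 in all precipitates and below 0.3 in all inputs, while that of SCARNA17 to SNHG22 stays between 3.65 and 4.80 throughout.

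Between the lines, no member passed the test. In the precipitates the K120/182R over WT log2 fold changes ran from -0.17 for SCARNA17 to 0.84 for SCARNA12, with 0 of 8 called by edgeR and by DESeq2 and 1 at an unadjusted p under 0.05, beside 19.6% of all genes called. SCARNA12 averaged 50.3 ± 15.4 CPM in K120/182R precipitates and 28.1 ± 14.04 CPM in WT precipitates (SD, n = 3 each), a log2 fold change of 0.84 (95% interval 0.03 to 1.64, edgeR adjusted p = 0.143). Its ranges overlapped. Without replicate 2 of the WT precipitates it was 1.30 (edgeR adjusted p = 0.00189), and leaving out any other single library did not bring it past the threshold.

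In the inputs, 0 of 8 members were called by edgeR and 1 by DESeq2, with 1 at an unadjusted p under 0.05, beside 17.5% of all genes called by edgeR. SCARNA12 averaged 8.05 ± 1.25 CPM in K120/182R inputs and 4.12 ± 0.56 CPM in WT inputs, and every K120/182R input stood above every WT input. Its log2 fold change was 0.97 (95% interval 0.07 to 1.87, edgeR adjusted p = 0.136). Leaving out replicate 1 or replicate 2 of the WT precipitates, which share the estimate of spread, brought that value past the threshold at 0.97 (edgeR adjusted p = 0.0432 and 0.0105). Leaving out any other single library did not. Its host PHB2 had a log2 fold change of 0.36 in the inputs (edgeR adjusted p = 0.148) and rose by 0.56 in the precipitates (edgeR adjusted p = 0.0192). The other 7 members had log2 fold changes from -0.06 to 0.27 in the inputs. KPNA4 fell by 0.68 in the inputs (edgeR adjusted p = 0.000360) and by 0.68 in the precipitates (edgeR adjusted p = 0.000304), whereas SCARNA7 had 0.24 in the inputs and 0.38 in the precipitates, neither past the threshold.

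The difference of enrichments, K120/182R minus WT, ran from -0.36 for SCARNA17 to 0.79 for SCARNA13. No member was called by edgeR or DESeq2 and none had an unadjusted p under 0.05, while edgeR called 15 of all genes, or 0.0653%. The 95% interval was -0.996 to 0.27 for SCARNA17 and -1.53 to 1.81 for SCARNA7. Differences of more than 1 log2 unit lie within the intervals of the other 7 members and outside that of SCARNA17, so the test does not show that these RNAs were recovered alike with both forms of HuR. With total library size 23.5% of the calls between precipitates and 5.36% of those between inputs were higher in K120/182R, and with small RNA scaling 3.94% and 3.92%, against 50.3% and 42.7% with TMM. For the difference of enrichments, 100% of the calls were higher with TMM, 91.4% with total library size and 40% with small RNA scaling.

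**Figure D4:**
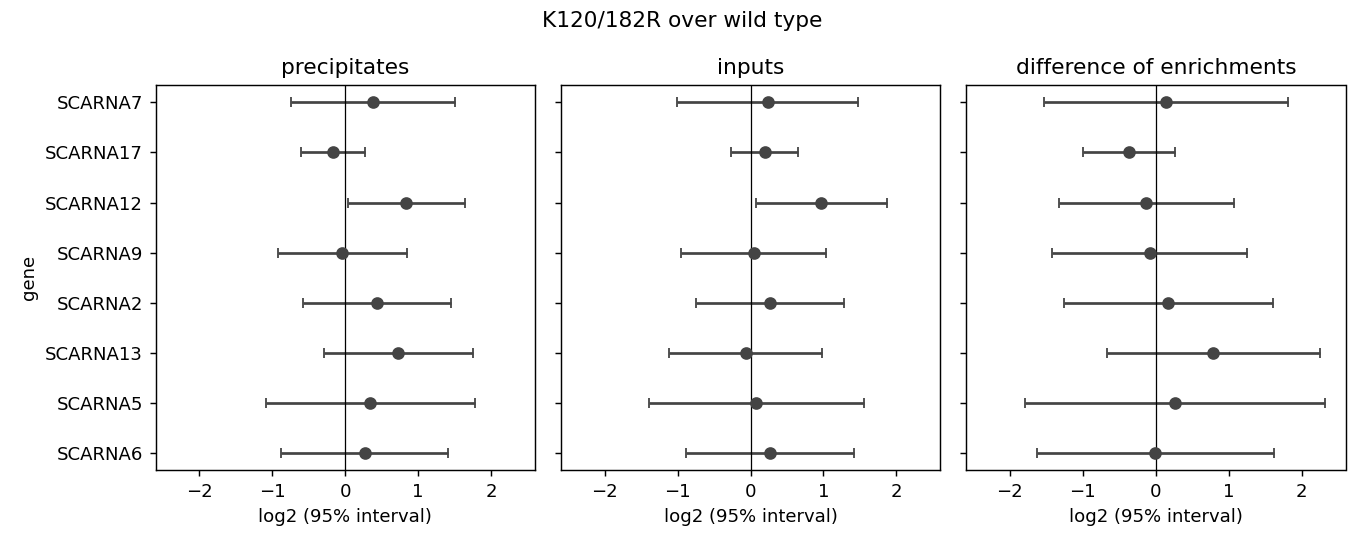
Log2 fold changes of K120/182R over WT in the precipitates (left), in the inputs (middle) and the difference of the 2 enrichments (right), for each member, from edgeR, with bars giving the 95% interval. The points lie between -0.36 and 0.97. The intervals of SCARNA12 in the precipitates and in the inputs lie just above 0, and all others span 0.

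Other scaRNA genes and the proteins that build or receive scaRNA particles were counted from lists, whose counts are to be read against the shares of all genes given above, 29.0% higher and 28.0% lower in the K120/182R line and 25.6% higher and 25.4% lower in the WT line. Of 18 further scaRNA symbols, with telomerase RNA (TERC, an H/ACA RNA of Cajal bodies) among them, 12 were tested. In the K120/182R line 6 rose and none fell, and in the WT line 5 rose and none fell, with median log2 fold changes of 1.07 and 0.66. SCARNA11 rose by 3.32 ± 0.56 in the K120/182R line (edgeR adjusted p = 0.000633) and by 1.52 ± 0.53 in the WT line (edgeR adjusted p = 0.0372). SCARNA8 rose by 1.84 ± 0.47 in the K120/182R line (edgeR adjusted p = 0.00178), at 1.12 ± 0.38 CPM in precipitates against 0.31 ± 0.07 CPM in inputs, and had a log2 fold change of 0.24 in the WT line (edgeR adjusted p = 0.664). SCARNA23 rose by 3.27 ± 0.81 in the K120/182R line and by 2.71 ± 0.82 in the WT line (edgeR adjusted p = 0.00607 and 0.0200). TERC had 88.0 ± 25.6 CPM in K120/182R precipitates against 55.4 ± 4.9 CPM in K120/182R inputs (edgeR adjusted p = 0.0857), and 85.9 ± 36.6 CPM in WT precipitates against 46.0 ± 8.5 CPM in WT inputs, where it rose by 0.90 (edgeR adjusted p = 0.0302). Between the precipitates 1 of the 12 was called, the chromosome 5 entry of SCARNA18, which rose by 1.22 at 1.40 ± 0.54 CPM in K120/182R precipitates and 0.59 ± 0.12 CPM in WT precipitates (edgeR adjusted p = 0.0145).

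The mRNAs of the C/D particle proteins were higher in precipitates for 3 of 4 genes in each line. NOP58, a core protein of C/D particles, rose by 1.37 ± 0.12 in the K120/182R line (edgeR adjusted p = 4.39e-10) and by 0.71 ± 0.12 in the WT line (edgeR adjusted p = 1.9e-05), and FBL, which encodes fibrillarin, rose by 0.79 in the K120/182R line and by 0.54 in the WT line. Of the 4 H/ACA particle genes 1 rose and 1 fell in each line: GAR1 rose by 0.66 in the K120/182R line and 0.55 in the WT line, NOP10 fell by 0.36 in the K120/182R line, and DKC1, which encodes dyskerin, fell by 0.40 in the WT line. Of 9 tested assembly factors 3 rose and 2 fell in the K120/182R line, and 1 rose and 2 fell in the WT line. NOPCHAP1, a chaperone of C/D particle assembly, rose by 2.42 in the K120/182R line and by 1.95 in the WT line. RUVBL2, an ATPase of the same assembly pathway, fell by 1.29 in the K120/182R line and by 1.40 in the WT line. Of 23 genes for Cajal body and RNA trimming proteins, 10 rose and 2 fell in the K120/182R line and 8 rose and 2 fell in the WT line. PARN, a nuclease that trims scaRNAs, rose by 1.11 in the K120/182R line and by 0.77 in the WT line, and ICE2, part of a complex that aids snRNA transcription, rose by 1.04 in the K120/182R line and by 0.67 in the WT line. The 2 that fell were LARP7, a partner of 7SK and U6 RNA, by 1.11 in the K120/182R line and by 1.04 in the WT line, and GEMIN4, of the SMN complex, by 0.90 in the K120/182R line and by 0.77 in the WT line. Between precipitates 6 of these 23 rose in K120/182R over WT and none fell, beside 9.87% of all genes that rose there. ICE2 rose there by 0.61 (edgeR adjusted p = 0.00129) and WRAP53, which brings scaRNAs to Cajal bodies, by 0.64 (edgeR adjusted p = 0.00136).

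The targets of scaRNAs, the spliceosomal RNAs, were tested for 15 of 18 listed genes, of which 3 rose and 6 fell in the K120/182R line and 2 rose and 7 fell in the WT line, with medians of -0.18 and -1.01. RNU2-2P, a U2 gene, fell by 3.76 ± 0.35 in the K120/182R line (edgeR adjusted p = 3.54e-09) and by 4.09 ± 0.35 in the WT line (edgeR adjusted p = 2.18e-09). The other 5 that fell in the K120/182R line were copies of U1 with nearly the same counts (RNU1-1, RNU1-2, RNU1-3, RNU1-4 and RNVU1-18), so reads cannot be assigned to one of them. RNU1-3 fell by 2.39 in the K120/182R line and by 2.58 in the WT line, where the U5 gene RNU5A-1 also fell, by 1.76 (edgeR adjusted p = 0.0261). The WT inputs were uneven for RNU5A-1, at 114.8 ± 97.3 CPM, against 33.95 ± 7.26 CPM in WT precipitates. In the K120/182R line its log2 fold change was -0.55 (edgeR adjusted p = 0.413). Among the genes that rose, the U5 gene RNU5F-1 did so by 3.92 ± 0.49 in the K120/182R line (edgeR adjusted p = 4.17e-07) and by 2.45 ± 0.53 in the WT line (edgeR adjusted p = 0.000511), from a low level, at 2.78 ± 1.02 CPM in K120/182R precipitates against 0.18 ± 0.17 CPM in K120/182R inputs. RNU5D-1, also a U5 gene, rose by 2.32 in the K120/182R line and by 1.56 in the WT line, and RNU4ATAC rose by 1.43 in the K120/182R line (edgeR adjusted p = 0.0125) and had a log2 fold change of 0.62 in the WT line (edgeR adjusted p = 0.215).

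Genes whose profile over the 12 libraries was most like that of a member were found by the root mean square distance of centred log2 CPM values. SCARNA17 was nearest to SNHG22 (0.10) and to the SCARNA18 entry (0.20), with which it shares its locus. SCARNA7 had no near neighbour, the closest being MIR3609 at 0.82, SNORA41 at 0.91 and SNORD2 at 0.9997. SCARNA5 was nearest to SCARNA13 (0.33), and SCARNA13 to SNORA64 (0.22). SCARNA6 was nearest to ROMO1 (0.29), SCARNA9 to HSPE1 (0.21), SCARNA12 to SNORA4 (0.31) and SCARNA2 to SNRPGP2 (0.24), a pseudogene.

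The members also differed in composition. Thymine made up 33.3% of SCARNA7 and 32.0% of SCARNA9, but 20.1% of the SCARNA17 entry, which ranked after SCARNA7 in enrichment. In SCARNA5, SCARNA13, SCARNA6, SCARNA12 and SCARNA2 it was 29.0%, 27.3%, 26.0%, 22.6% and 20.4%. Runs of TTTTT occurred in SCARNA7 and SCARNA5 alone among the 8 entries, and windows of the same length held such a run on that strand in 57.7% of chromosome 3 and 51.6% of chromosome 2. ATTTA, the core of AU-rich elements, occurred once, in SCARNA5, where 43.3% of windows of that length hold it. NNTTNNTTT was found in SCARNA12 alone, where 55.2% of windows hold it. TGATGA occurred within the first 12 bases of SCARNA5, SCARNA6, SCARNA7 and SCARNA12, and 8.28% to 10.4% of windows of these lengths hold it. CTGA stands in 72.8% to 80.2% of such windows. The order of the members by thymine content was not their order by enrichment, with SCARNA17 measured on its entry of 144 bases alone. A relation between composition and recovery was not tested.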

How the data were processed

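Raw counts per Ensembl gene were analysed for 12 libraries, 3 in each of 4 groups, as the authors deposited them, 1 set per library. Per the submitters' processing notes, the tools were bcl2fastq 2.20.0.422, cutadapt, STAR 2.4.0j and featureCounts 1.6.4, and the build was hg19. The annotation release, how strand was used and whether multi-mapping reads were kept are not given in the sources used here. Among gene counts of 1 to 20, 74.1% were even, so read mates may have been counted separately.

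Identifiers were matched to GENCODE release 44 on GRCh37 (55538 of 57773, those without a match holding up to 21.0% of a library's counts). Low genes were dropped with filterByExpr (at least 10 counts, 15 in total), and counts were scaled by TMM (factors 1.32 to 1.78 in precipitates, 0.526 to 0.909 in inputs) and fitted over all 12 libraries in edgeR 4.0.16 (R 4.3.3) with a robust quasi-likelihood model. A call is an adjusted p (Benjamini-Hochberg over 22984 genes) under 0.05. The F statistic gave the standard errors, and CPM use TMM library sizes. The fit was also run on simulated counts in which a small share of genes changed, which does not test the scaling between precipitates and inputs. DESeq2 1.42.0, other scalings and filters, blocks and leaving out each library were alternatives. Replicates differed by more than sampling noise (chi-square per degree of freedom 13.0 or more).

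The members, lists and tests were chosen with earlier results of these data known. From each list, counts and at most 4 genes by smallest adjusted p (of the K120/182R and WT enrichments, or within the precipitates comparison) are given. Some of the genes behind counts of 5 or fewer are also given, named after their values were seen. Host genes, ELAVL1 and at most 3 nearest profiles of each member above a mean log2 CPM of 2 are given too. The H/ACA and C/D classes and targets are background knowledge.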

Additional observations from a re-analysis of the deposited data

How the results depend on the processing

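The calls of SCARNA7, SCARNA17, SCARNA12 and SCARNA9 in both lines kept their direction and side of the threshold under all 23 alternatives. The tested members had 90 counts or more in every library. No value could separate precipitation from RNA amount.

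Replicate numbers were not taken to pair the libraries, since over all genes not every correlation of deviations between same-numbered libraries was over 0.1 (-0.521 to 0.612, median 0.0528, 8 of 18 over 0.1), and 6 of 12 libraries correlated best with their own number. Between precipitate and input of the same line the correlations were 0.30, 0.13 and -0.17 for WT replicates 1, 2 and 3. For K120/182R replicates they were 0.29, -0.036 and 0.42, so these values do not settle whether libraries were paired within a line. The 8 members nevertheless shared replicate 1 as their lowest library in all 4 groups. With the replicate number as a block, 7 members rose and 1 fell in the K120/182R line, 6 rose and 1 fell in the WT line, 2 rose between precipitates and 1 between inputs, and 23 of all genes were called for the difference of enrichments. Of all 22984 genes, 6567 rose and 6404 fell in the K120/182R line and 5735 rose and 5817 fell in the WT line. Between precipitates 2371 of them rose, and between inputs 1683. The calls this block added were SCARNA5 at 1.33 (edgeR adjusted p = 0.0104) and SCARNA6 at -0.40 (0.0429) in the K120/182R line, SCARNA6 at -0.47 (0.0212) and SCARNA13 at 0.87 (7.99e-05) in the WT line, SCARNA12 at 0.89 (0.000452) and SCARNA13 at 0.73 (0.00192) between precipitates, and SCARNA12 at 0.96 (0.000811) between inputs. That block turned the difference of SCARNA6 to 0.0711 and the inputs value of SCARNA5 to -0.11 and of SCARNA9 to -0.0205. With a replicate block within line, 7 members rose and 1 fell in each line, SCARNA5 in the WT line among them at 0.96 (edgeR adjusted p = 0.000134), 105 of all genes were called for the difference, and SCARNA6 had a difference of 0.0852. Of all genes, 6592 rose and 6428 fell in the K120/182R line with that block, and 5760 rose and 5908 fell in the WT line.

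With total library size all 8 members rose in each line, 2 rose between precipitates and 1 between inputs, while 105 genes were called for the difference and 7208 between inputs. Of all genes, 776 rose between precipitates and 386 between inputs. SCARNA6 turned to 0.92 in the K120/182R line and 0.69 in the WT line. The differences of SCARNA6, SCARNA9 and SCARNA12 turned to 0.23, 0.18 and 0.14, and the inputs values of SCARNA2, SCARNA5, SCARNA6, SCARNA7, SCARNA9 and SCARNA17 to -0.13, -0.34, -0.12, -0.16, -0.40 and -0.25. With small RNA scaling 1 member fell in each line (SCARNA6) and 1 between precipitates (SCARNA17), and 6954 genes were called between precipitates and 7377 between inputs. Of all genes, 13310 fell in the K120/182R line, 13775 in the WT line and 6680 between precipitates. The WT enrichments of SCARNA5 and SCARNA13 turned to -0.0742 and -0.20, and the difference of SCARNA6 to 0.0274. The precipitates values of SCARNA2, SCARNA5, SCARNA6 and SCARNA7 turned to -0.0703, -0.15, -0.19 and -0.11, and the inputs values of SCARNA2, SCARNA5, SCARNA6, SCARNA7, SCARNA9 and SCARNA17 to -0.23, -0.43, -0.22, -0.26, -0.48 and -0.33. The median of all genes also moved with the scaling, in the inputs to -0.426 with total library size and to -0.52 with small RNA scaling. Whether this shift accounts for the turned values was not tested. Between precipitates with total library size SCARNA12 was called at 0.68 and SCARNA13 at 0.56, against 0.84 and 0.73, not called, with TMM.

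With protein-coding TMM factors 25 genes were called for the difference, where SCARNA6 had 0.0021, and SCARNA9 had 0.0194 between precipitates. Without a filter 185 genes, with 50 counts in 3 libraries 1 gene, and with DESeq2 270 genes were called for the difference, where SCARNA6 had 0.0032 with the stricter filter and 0.0064 in DESeq2. Testing against a log2 fold of 1 left 4304 genes called in the K120/182R line, 2650 in the WT line, 0 for the difference, 102 between precipitates and 93 between inputs, and 5 and 4 members in the K120/182R and WT lines. In DESeq2, and with only the groups compared, 1 member rose between inputs (SCARNA12). The cause was not tested.

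Leaving out each library in turn gave 6 to 7 members in the K120/182R line and 5 to 6 in the WT line, 0 to 1 between precipitates and 0 to 1 between inputs. All genes called ran from 0 to 75 for the difference, from 2796 to 5129 between precipitates and from 2195 to 4160 between inputs. The difference ran from -0.41 to 0.33 for SCARNA12, from -0.13 to 0.63 for SCARNA2, from -0.11 to 0.77 for SCARNA5, from -0.36 to 0.48 for SCARNA6, from -0.25 to 0.55 for SCARNA7 and from -0.50 to 0.23 for SCARNA9. Inputs values ran from -0.21 to 0.17 for SCARNA13, from -0.19 to 0.44 for SCARNA5, from -0.0910 to 0.61 for SCARNA7 and from -0.10 to 0.27 for SCARNA9. Precipitates values ran from -0.34 to 0.14 for SCARNA17, from -0.0913 to 0.76 for SCARNA6 and from -0.46 to 0.27 for SCARNA9.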
